A study of Mus musculus with 30 samples.

Results

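Smco3, Ppcdc, Anxa8, Krt12, D4Ertd617e and Sv2c are 6 of the 36717 genes and transcripts measured here in aged mouse brain, and each of them gave a clear signal in some genotypes and a signal at or near background in others. They were chosen from their array signals in these same mice, because those signals switched with genotype, so every level given below for a genotype is a description and carries no test. The 6 genes were read by 10 of 55681 probes, since Smco3, Anxa8, Krt12 and Sv2c each had 2 probes and Ppcdc and D4Ertd617e had 1. The brain samples came from 15 perfused mice aged 15 to 20 months, each giving 1 array of the hippocampus and 1 of the brain without hippocampus (called brain below). The genotypes were WT (3 females), JHT (2 females), 3xTgAD (2 females and 3 males) and 3xTgAD-BKO (2 females and 3 males, labelled JHT_3xTgAD). JHT mice lack functional B cells because the J segments of the immunoglobulin heavy chain locus are deleted, 3xTgAD mice carry, among their alleles, human APP and tau transgenes driven by the neuronal Thy1 promoter, and 3xTgAD-BKO mice came from a cross of both lines and carry the alleles of both. The labels give C57BL/6j as the strain of every mouse, whereas the stock names in the methods are B6;129 for 3xTgAD and B6.129P2 for JHT, and the WT mice were bought in. The labels do not say which mice were littermates, and the alleles under study and any other DNA that differs between the genotypes cannot be told apart. No DNA was measured.

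The 6 genes have little in common in function. Smco3 encodes a predicted single-pass membrane protein with coiled-coil domains, Ppcdc encodes the decarboxylase of coenzyme A synthesis, and Anxa8 encodes an annexin, a family that binds phospholipid membranes with calcium. Krt12 is known as the type I keratin of the corneal epithelium, Sv2c is a synaptic vesicle glycoprotein known for its high level in the basal ganglia, and D4Ertd617e is transcribed into a non-coding RNA. An array spot of 1 probe reports the RNA that matches that probe, not every transcript of the gene.

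Depth on an array is signal over background. Between 52.6% and 62.5% of the probes carried a signal well above background on a given array, which is the scanner software's call for a spot clearly brighter than its surroundings, and no spot was saturated. Where a signal is said below to be at background, it was not well above background by this call. The 75th percentile of the processed intensities was 454 to 824 in the hippocampus and 841 to 1636 in the brain. Thy1 was higher on all transgenic arrays than on any other, and Xist, Ddx3y and Eif2s3y separated the sexes, so that 0 of 30 arrays went against their labels. Of 8 hippocampal markers 7 were higher in the hippocampus than in the brain, while 4 of 4 cerebellar and 4 of 4 striatal markers were higher in the brain, as the dissection labels say. The 5 hippocampal 3xTgAD arrays lay on slide 1 with 3 of the 3xTgAD-BKO arrays, and the WT and JHT arrays lay on slide 2 with the other two. In the brain the 3xTgAD arrays lay on slide 3 and the WT and JHT arrays on slide 4.

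The 6 genes fell into 3 patterns, and 3 of them (Krt12, D4Ertd617e and Sv2c) differed in 3xTgAD-BKO mice from both lines that were crossed to make them. The sequence in front of these 3 genes is shown because they differed in the same genotype, though D4Ertd617e did not in mouse 8. It is the 250 bases before the RefSeq start in assembly GRCm38.p6, read on the gene's own strand, and it is the reference mouse's sequence and not that of these mice.
Krt12, chr11:99422260-99422509, - strand: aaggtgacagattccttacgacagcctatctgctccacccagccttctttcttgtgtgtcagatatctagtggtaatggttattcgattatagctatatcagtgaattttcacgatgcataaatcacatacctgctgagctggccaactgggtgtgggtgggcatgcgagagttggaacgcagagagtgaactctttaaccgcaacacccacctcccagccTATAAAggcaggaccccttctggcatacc
D4Ertd617e, chr4:118626154-118626403, + strand: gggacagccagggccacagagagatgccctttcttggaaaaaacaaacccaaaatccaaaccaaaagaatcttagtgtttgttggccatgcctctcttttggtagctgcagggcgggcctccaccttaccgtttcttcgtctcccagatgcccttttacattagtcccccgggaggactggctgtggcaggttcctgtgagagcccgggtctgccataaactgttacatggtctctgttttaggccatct
Sv2c, chr13:96132578-96132827, - strand: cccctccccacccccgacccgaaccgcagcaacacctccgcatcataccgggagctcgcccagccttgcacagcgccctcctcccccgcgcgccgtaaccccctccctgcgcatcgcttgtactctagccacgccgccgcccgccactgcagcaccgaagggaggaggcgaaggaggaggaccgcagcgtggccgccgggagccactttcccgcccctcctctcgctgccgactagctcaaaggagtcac
The capitals mark TATAAA, the core of a TATA box, which was searched on both strands. It stood 29 bases before the start of Krt12, was not found in these windows of the other 4 genes with an entry (D4Ertd617e, Sv2c, Anxa8 and Ppcdc), and was present in 12.4% of 32851 promoters of the same length. The Sv2c window had 70.8% G and C bases and 26 CpG sites, that of Krt12 48.4% and 6, and that of D4Ertd617e 52% and 5, against medians of 52.4% and 6 over all promoters. Among the 3 genes that moved in 3xTgAD-BKO mice, Sv2c therefore stood apart in base composition, while Krt12 and D4Ertd617e were closer to the medians.

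Smco3 (NM_001039558, chromosome 6) was near background in 3xTgAD mice only on the brighter of its probes. In the hippocampus its log2 signals were 4.12, 4.12, 3.56, 4.20 and 5.15 in 3xTgAD mice 1 to 5. They were 10.33, 10.66 and 10.12 in WT, 10.18 and 10.05 in JHT, and 10.69, 10.24, 9.72, 10.18 and 10.13 in 3xTgAD-BKO mice 0, 6, 7, 8 and 9. The groups did not overlap, and the lowest 3xTgAD-BKO array stood 4.57 log2 units above the highest 3xTgAD array. The mean was 10.19 ± 0.35 (SD, n = 5) in 3xTgAD-BKO and 4.23 ± 0.58 (SD, n = 5) in 3xTgAD mice. Because 4 of the 5 3xTgAD arrays were not well above background, each of these was set to the lowest signal that any probe well above background had on that array, or to its own signal if higher, and on this scale Smco3 was at least 51.1-fold higher in 3xTgAD-BKO than in 3xTgAD hippocampi. In the brain the 3xTgAD arrays read 4.66, 4.31, 3.63, 4.31 and 3.94, while WT read 10.48, 10.84 and 10.79, JHT 10.60 and 10.71, and 3xTgAD-BKO mice 9.998 to 10.60. With 3 of 5 3xTgAD arrays not well above background, the brain level was at least 60.5-fold higher in 3xTgAD-BKO than in 3xTgAD mice. Only 3 of the 10 3xTgAD arrays (mouse 5 in the hippocampus, mice 1 and 2 in the brain) were called well above background, at signals of 5.15, 4.66 and 4.31, although 4.31 was also the signal of a 3xTgAD brain array that was not.

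**Figure D1:**
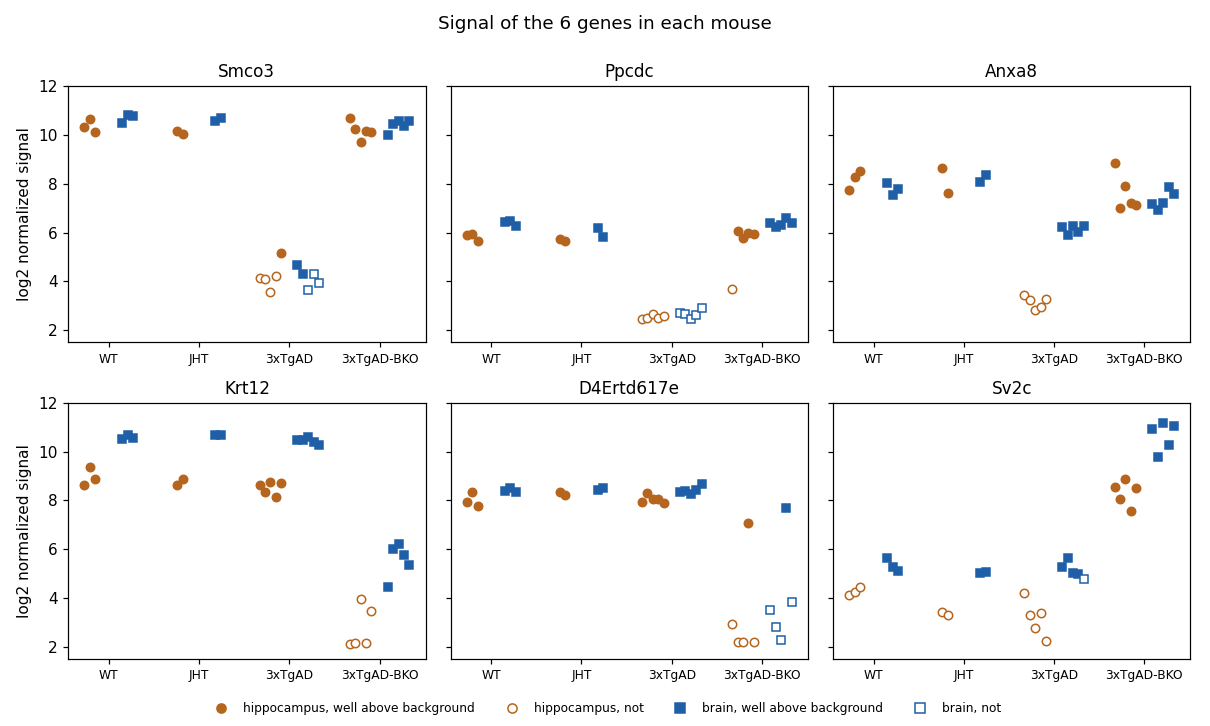
Log2 quantile-normalized signal (vertical axis) of the probe with the higher mean for each of the 6 genes, by genotype (horizontal axis). Each point is 1 array of 1 mouse, circles are hippocampus, squares are brain, and open symbols were not well above background. Smco3, Ppcdc and hippocampal Anxa8 are low in 3xTgAD mice, Krt12 and, except in mouse 8, D4Ertd617e are low in 3xTgAD-BKO mice, and Sv2c is high in 3xTgAD-BKO mice.

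Ppcdc (NM_176831, chromosome 9) had no signal well above background in 3xTgAD mice. Its single probe read 2.47 to 2.67 in the hippocampus and 2.47 to 2.89 in the brain of the 5 3xTgAD mice, and none of these 10 arrays was well above background. In the brain it was 6.43, 6.49 and 6.26 in WT, 6.20 and 5.82 in JHT, and 6.41, 6.25, 6.32, 6.59 and 6.38 in 3xTgAD-BKO mice 0, 6, 7, 8 and 9. All 10 of these were well above background and none overlapped the 3xTgAD arrays. Setting the 3xTgAD arrays to the same limit gives a lower bound, by which brain Ppcdc was at least 4.23-fold higher in 3xTgAD-BKO than in 3xTgAD mice. In the hippocampus the bound was 2.04-fold, with signals of 5.64 to 6.08 outside the 3xTgAD mice, except in 3xTgAD-BKO mouse 0, where it was 3.68 and not well above background.

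The exception in mouse 0 stood alone on 1 array. The brain array of the same mouse read 6.41, in the range of the other 3xTgAD-BKO mice. Among 122 bright probes within 10 rows and columns of the Ppcdc spot, 9 were more than 8-fold below the median of the other arrays on this array, against 0 or 1 of 124 on the 14 other hippocampal arrays. Over the whole array 309 of 18580 bright probes were that low, against 33 to 79 on the others. The part of these low spots in the Ppcdc value was not tested. Without mouse 0 hippocampal Ppcdc was at least 2.79-fold higher in 3xTgAD-BKO than in 3xTgAD mice.

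Anxa8 (NM_013473, chromosome 14) was not well above background on its brighter probe in the hippocampus of 3xTgAD mice, and its lowest brain signals were also theirs. In the hippocampus it read 3.43, 3.25, 2.83, 2.96 and 3.27 in 3xTgAD mice 1 to 5, none well above background. All 5 arrays still met the scanner software's other call, that of a positive and significant signal. Anxa8 read 7.75, 8.28 and 8.54 in WT, 8.66 and 7.64 in JHT, and 8.87, 7.01, 7.91, 7.22 and 7.12 in 3xTgAD-BKO mice 0, 6, 7, 8 and 9. On this probe the hippocampal level was at least 8.97-fold higher in 3xTgAD-BKO and at least 13.3-fold higher in WT than in 3xTgAD mice. In the brain every array was well above background, with 5.91 to 6.29 in 3xTgAD mice, 6.91 to 7.89 in 3xTgAD-BKO mice, 7.56 to 8.04 in WT and 8.08 and 8.35 in JHT. On this probe brain levels did not overlap between 3xTgAD and any other genotype, and the mean difference was 2.29-fold to 3xTgAD-BKO, 3.14-fold to WT and 4.19-fold to JHT.

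Markers of the meninges (8 genes, 7 of them well above background on every hippocampal array) were summed beside Anxa8, because small amounts of the coverings can remain on dissected tissue. The log2 of their summed signal was 13.5 to 15.0 in 3xTgAD and 14.9 to 15.5 in 3xTgAD-BKO hippocampi, with WT at 13.8 to 14.6 and JHT at 14.4 to 14.9. Choroid plexus markers (8 genes, 5 well above background on every hippocampal array) summed to 10.6 to 12.6 in WT, 17.8 to 18.3 in JHT, 13.4 to 18.5 in 3xTgAD and 11.2 to 18.4 in 3xTgAD-BKO hippocampi. The part of either cell type in the Anxa8 values was not tested. In whole tissue, fewer cells of a type and less RNA per cell cannot be told apart.

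Krt12 (NM_010661, chromosome 11) was low in 3xTgAD-BKO mice only, although neither 3xTgAD nor JHT mice had low levels. In the hippocampus 3xTgAD-BKO mice 0, 6, 7, 8 and 9 read 2.09, 2.13, 3.96, 2.14 and 3.44, none well above background. 3xTgAD mice 1 to 5 read 8.63, 8.34, 8.76, 8.13 and 8.71, WT mice 8.63, 9.37 and 8.88, and JHT mice 8.64 and 8.89. The level was at least 17.8-fold higher in 3xTgAD, at least 21.2-fold higher in JHT and at least 24.3-fold higher in WT than in 3xTgAD-BKO hippocampi. In the brain Krt12 was brighter and remained measurable in 3xTgAD-BKO mice, at 4.46, 6.01, 6.22, 5.78 and 5.36, against 10.29 to 10.70 on the 10 other arrays. The brain means were 5.56 ± 0.70 (SD, n = 5) in 3xTgAD-BKO and 10.44 ± 0.11 (SD, n = 5) in 3xTgAD mice, a 29.4-fold difference.

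D4Ertd617e (NR_029469, chromosome 4) followed Krt12 in all 3xTgAD-BKO mice but 1. In the hippocampus it read 2.93, 2.19, 2.18 and 2.18 in 3xTgAD-BKO mice 0, 6, 7 and 9, and in the brain 3.52, 2.81, 2.26 and 3.85, none well above background. Mouse 8 read 7.08 in the hippocampus and 7.68 in the brain, well above background in both. The 10 mice of the other genotypes read 7.75 to 8.36 in the hippocampus and 8.24 to 8.67 in the brain, so mouse 8 lay close to them in both tissues yet below each of them. Its 2 arrays were on different slides, as were those of every other mouse. Because of this mouse the 3xTgAD-BKO groups had an SD of 2.13 in the hippocampus and 2.14 in the brain, against 0.16 in 3xTgAD mice in either tissue. Without mouse 8 no 3xTgAD-BKO array was well above background, and D4Ertd617e was at least 13.6-fold lower in 3xTgAD-BKO than in 3xTgAD hippocampi and at least 16.5-fold lower in the brain. With all 5 mice and the same limit the values were 9.27-fold and 10.4-fold.

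Sv2c (NM_029210, chromosome 13) showed the reverse, with a high signal in 3xTgAD-BKO mice only. In the hippocampus it read 8.53, 8.05, 8.86, 7.57 and 8.49 in 3xTgAD-BKO mice 0, 6, 7, 8 and 9. It read 4.18, 3.31, 2.78, 3.37 and 2.23 in 3xTgAD, 4.12, 4.25 and 4.43 in WT, and 3.41 and 3.28 in JHT mice, none well above background. The level was at least 14.3-fold higher in 3xTgAD-BKO than in 3xTgAD mice, at least 13.7-fold higher than in WT and at least 14.4-fold higher than in JHT. In the brain 3xTgAD-BKO mice read 10.92, 9.78, 11.19, 10.26 and 11.04, while the others read 4.75 to 5.65 and were well above background on 9 of 10 arrays. The 3xTgAD-BKO mean was 45.7-fold higher than that of 3xTgAD mice.

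The values within the slides that held both genotypes are given as a description, since groups that do not overlap over all arrays cannot overlap on some of them. On slide 1 (hippocampus, 5 3xTgAD and 3 3xTgAD-BKO arrays) the 3xTgAD and 3xTgAD-BKO ranges were 3.56 to 5.15 and 9.72 to 10.69 for Smco3, and 8.13 to 8.76 and 2.09 to 3.96 for Krt12. On slide 3 (brain, 5 and 3 arrays) they were 3.63 to 4.66 and 10.36 to 10.60 for Smco3, and 10.29 to 10.58 and 5.78 to 6.22 for Krt12. The closest ranges were those of D4Ertd617e and Anxa8 on slide 3, at 8.24 to 8.67 and 2.26 to 7.68 for D4Ertd617e and at 5.91 to 6.29 and 6.91 to 7.89 for Anxa8. 3xTgAD and WT arrays were on no common slide, so slide and genotype cannot be told apart for that pair.

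The second probes did not always repeat the switch. The other probe of Smco3 was well above background on all 30 arrays and was lower in 3xTgAD mice, at 6.57 to 7.22 against 8.41 to 9.41 elsewhere, with no overlap. Its difference between 3xTgAD-BKO and 3xTgAD means was 4.02-fold in the hippocampus and 3.43-fold in the brain, far less than that of the first probe. The other probe of Anxa8 was also well above background on all arrays, with hippocampal levels of 4.64 to 5.32 in 3xTgAD and 4.90 to 6.57 in 3xTgAD-BKO mice, which overlapped, and a 1.83-fold difference between the means. In the brain its levels of 4.75 to 5.23 in 3xTgAD and 4.97 to 6.07 in 3xTgAD-BKO mice overlapped too, with a 1.47-fold difference.

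The second probes of Krt12 and Sv2c showed no switch. That of Krt12 was at background on 29 of 30 arrays, including those where the first probe read 10.70, and read 6.26 on the brain array of 3xTgAD mouse 4. That of Sv2c was well above background on all 15 brain arrays, where it read 5.44 to 6.92 in 3xTgAD-BKO and 6.21 to 6.55 in 3xTgAD mice and differed 1.02-fold between the means, while the first probe differed 45.7-fold in the same RNA. For Sv2c and Krt12 the genotype difference was thus read by 1 of 2 probes. The probe sequences were not used here, so where each probe lies on its transcript was not tested.

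**Figure D2:**
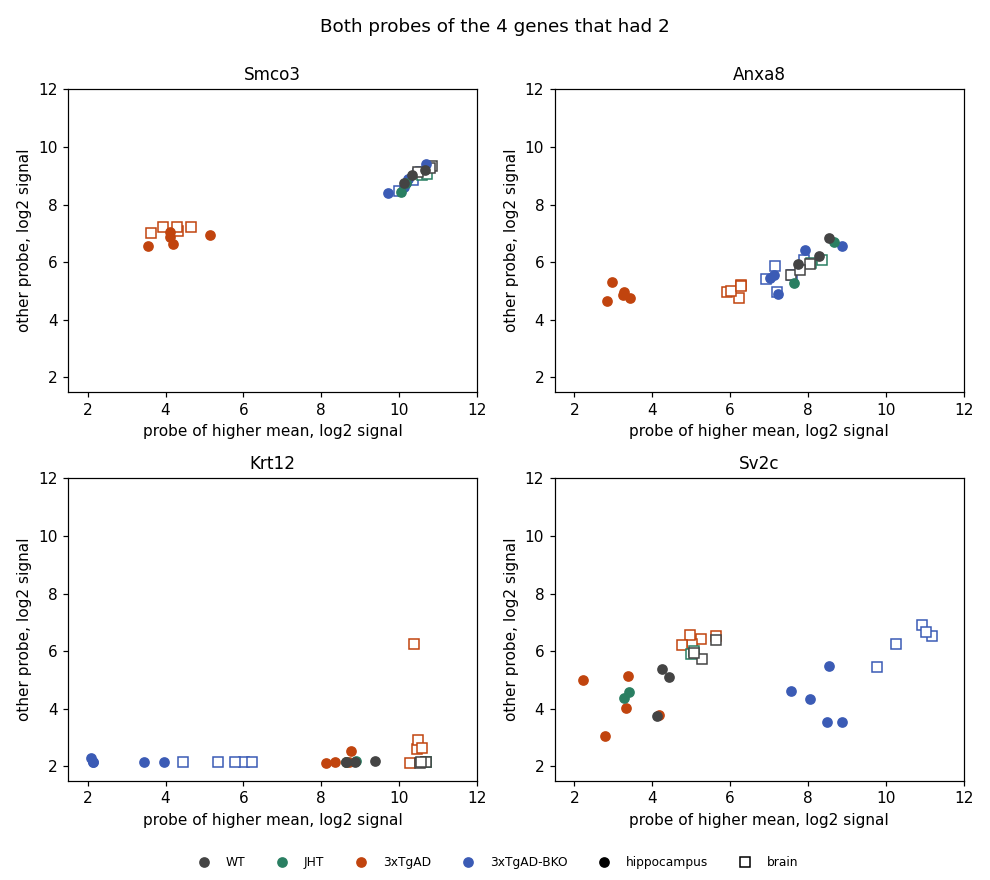
Log2 signal of the probe with the higher mean (horizontal axis) against that of the other probe (vertical axis) for Smco3, Anxa8, Krt12 and Sv2c, 1 point for each of 30 arrays. Colours are genotypes, filled circles hippocampus and open squares brain. Both Smco3 probes separate 3xTgAD mice, while the second Sv2c probe reads 5.44 to 6.92 in the brain of 3xTgAD-BKO mice, among the other genotypes.

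Whether the 2 tissues of a mouse gave the same call was compared next. D4Ertd617e had the same call in both tissues in 15 of 15 mice, with 11 mice on in both and 4 off in both. Ppcdc had it in 14 of 15, the exception being mouse 0, and Smco3 in 12 of 15. For Krt12 and Anxa8 the 5 mice of the low genotype were at background in the hippocampus and above it in the brain, which left 10 of 15 with the same call. For Sv2c 6 of 15 agreed, as 9 mice were above background in the brain only. The tallies depend on the call: with the scanner software's other call, that of a positive and significant signal, they were 15 for Smco3 and Anxa8, 14 for Sv2c, 12 for Krt12 and D4Ertd617e, and 10 for Ppcdc. By this other call Smco3 and Anxa8 were on in both tissues of all 15 mice, the low genotype included. Sv2c was on in both tissues of 14 mice and in the brain only of 1. For these genes such tallies therefore do not describe a switch.

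**Figure D3:**
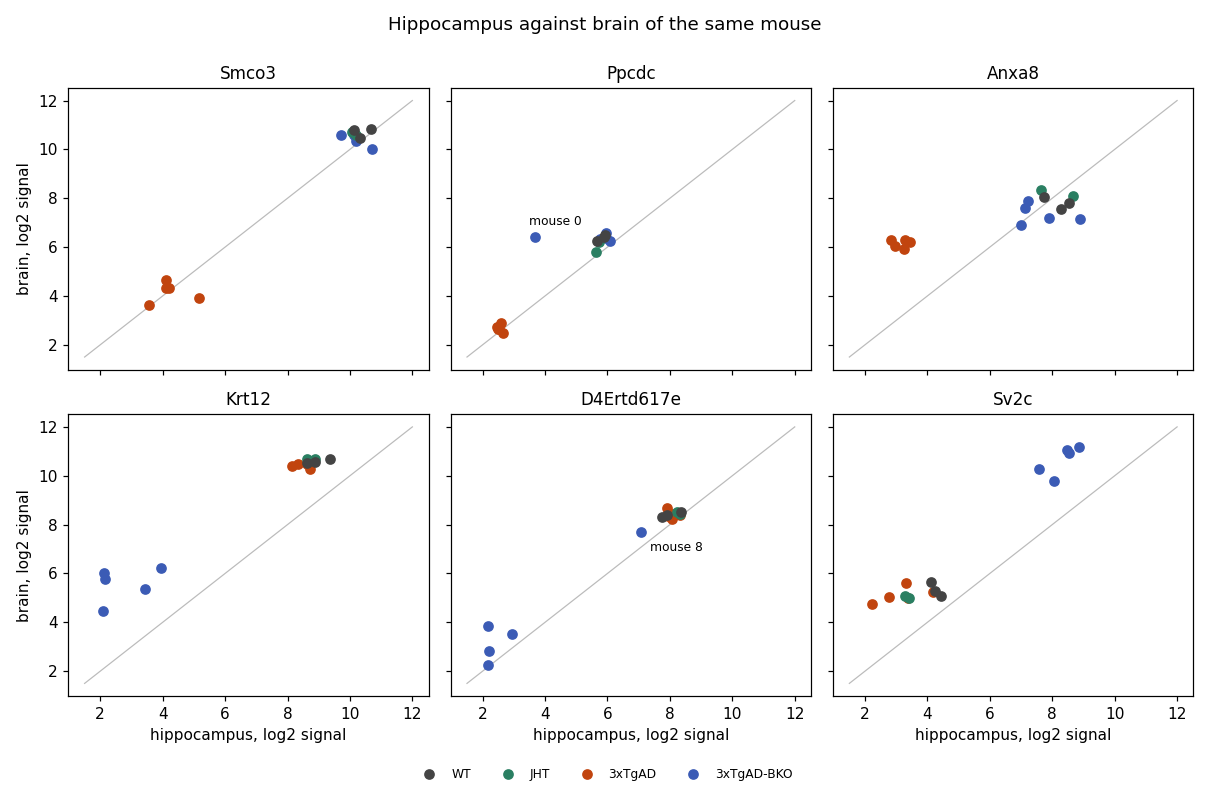
Log2 signal in the hippocampus (horizontal axis) against the brain (vertical axis) of the same mouse for the 6 genes, 1 point for each of 15 mice, coloured by genotype, with a line of equal signal. Mouse 8 (D4Ertd617e) is high in both tissues at 7.08 and 7.68, mouse 0 (Ppcdc) is low in the hippocampus alone at 3.68, and Krt12 and Sv2c lie above the line.

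Differences between tissues were tested within a genotype, a contrast that did not choose the genes, wherever a gene was well above background on every array of both tissues. This gave 15 tests, and 4 passed an adjusted p of 0.05 over all genes (limma on all 30 arrays, sexes of a genotype weighted equally). Of all genes, 27.6% passed in WT, 17.6% in JHT, 35.6% in 3xTgAD and 34.5% in 3xTgAD-BKO mice. Those shares include genes at background, which the 15 tests left out. Whether 4 of 15 is more or less than usual for such genes was therefore not tested. Krt12 fell by 1.63 log2 units from brain to hippocampus in WT (standard error 0.39, limma adjusted p = 0.0036, lower in 3 of 3 mice), fell by 1.93 in JHT (adjusted p = 0.0076, 2 of 2 mice) and fell by 1.94 in 3xTgAD mice (adjusted p = 4.6e-05, 5 of 5 mice). Sv2c fell by 2.29 in 3xTgAD-BKO mice (standard error 0.28, limma adjusted p = 2.4e-06, lower in 5 of 5 mice). Beside these, the log2 summed signal of 4 striatal markers was 10.3 to 11.8 in the hippocampus and 14.1 to 14.6 in the brain, and that of 4 cerebellar markers 9.37 to 10.9 and 16.2 to 16.6, and their part in the differences was not tested. In WT, JHT and 3xTgAD mice the 2 tissues were on no common slide, so tissue and slide cannot be told apart in the Krt12 tests. In 3xTgAD-BKO mice only 1 brain array lay on a slide (slide 2) with hippocampal arrays.

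The other 11 tissue tests did not pass, in Smco3, Anxa8, D4Ertd617e and Ppcdc. The smallest adjusted p among them was 0.28, for Ppcdc in WT mice (-0.57 with a standard error of 0.36, and lower in the hippocampus in 3 of 3 mice). This test passed when mouse 0, a 3xTgAD-BKO mouse, was left out (adjusted p = 0.0012), with the same difference of -0.57. Anxa8 differed by 0.39 (standard error 0.37) in WT and by 0.30 (standard error 0.29) in 3xTgAD-BKO mice, which were the 2 largest positive values, while the remaining tests lay between -0.57 and -0.07. D4Ertd617e was lower in the hippocampus in 3 of 3 WT, 2 of 2 JHT and 5 of 5 3xTgAD mice. Its standard errors of 0.73 to 1.14 came from a fit that included mouse 8, while the SDs of these groups were 0.068 to 0.31. Smco3 was lower in 3 of 3 WT, 2 of 2 JHT and 4 of 5 3xTgAD-BKO mice. The call for Krt12 in JHT mice was lost without JHT mouse 13 or 14 (adjusted p = 0.14 and 0.11), in fits that gave the remaining JHT mouse the spread of the other groups. With the mean of both Krt12 probes it was lost in WT (-0.81, adjusted p = 0.11) and JHT (-0.95, adjusted p = 0.15).

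Females and males were compared within 3xTgAD and within 3xTgAD-BKO mice by the same rule. In 13 tests none passed after adjustment (limma), and 2 had an unadjusted p under 0.05. In the background, 0.0409% and 0.0436% of all genes passed in the hippocampus of 3xTgAD and 3xTgAD-BKO mice and 0.0572% and 0.357% in the brain. Brain Krt12 of 3xTgAD-BKO mice was 6.11 in females and 5.20 in males, a difference of 0.92 (standard error 0.29, limma adjusted p = 0.19), which passed only without mouse 8 (1.21, limma adjusted p = 0.029). Brain Anxa8 of 3xTgAD-BKO mice was 7.05 in females and 7.54 in males (limma adjusted p = 0.29). Nothing here separates litters or cohorts, so p-values measure the spread between these mice. The tests rest on 2 females and 3 males, and missing the threshold does not show that the sexes were alike.

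Few genes of the array behaved in an all-or-none way by a strict definition, in which every genotype was well above background either on all of its arrays or on none, with at least 1 genotype of each kind. It held for 54 of 36717 genes in the hippocampus (0.147%) and for 49 in the brain (0.133%), among them Anxa8, Krt12 and Sv2c in the hippocampus and Ppcdc in the brain. Each gene was read by its brightest probe here. Signal at background in 3xTgAD mice alone was seen for 9 genes in the hippocampus and 6 in the brain, of which 2 and 4 had a gap of over 2 log2 units between the groups. Krt12 was the only gene at background in 3xTgAD-BKO mice alone in the hippocampus, and 2 genes, Sv2c being 1 of them, had signal in 3xTgAD-BKO hippocampi alone. Signal in JHT mice alone was the most frequent pattern, with 12 and 21 genes, and JHT was also the smallest group. In both tissues at once 7 genes kept 1 pattern, none of them among the 6, since Smco3 was above background on 3 of the 3xTgAD arrays, D4Ertd617e was on in mouse 8, Ppcdc was at background in the hippocampus of mouse 0, and the brighter probes of Anxa8, Krt12 and Sv2c were above background in the brain of mice where they were not in the hippocampus.

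Genes lying next to the 6 were then examined. They were taken by position and not by their own values, but around genes picked for their switch, with earlier results of these data known. The 5 nearest measured genes on either side by gene order in GRCm38.p6 gave 60 genes, and each was tested in 8 comparisons (3xTgAD-BKO against 3xTgAD in females and males, 3xTgAD against WT and JHT against WT in females, in both tissues) with limma over all genes. In at least 1 comparison 8 of 60 passed, against 3.34% of all genes. With only the groups compared in the fit 4 passed (0.986% of all genes), and with the slide as a block 20 passed (21.5% of all genes). Leaving out 1 mouse at a time gave 5 to 12 (2.16% to 7.08% of all genes). By member the 8 were 3 of 10 around Smco3, 2 of 10 around Ppcdc, and 1 of 10 each around Krt12, Anxa8 and D4Ertd617e. Around Sv2c 0 of 10 passed, where 7 had an unadjusted p under 0.05 in some comparison, as had 54.2% of all genes. In 3xTgAD-BKO against 3xTgAD females 3 neighbours passed in the hippocampus and 2 in the brain, where 0.37% and 1.12% of all genes did. In males the counts were 6 and 3, against 0.847% and 0.961%. In 3xTgAD against WT females they were 4 and 3, against 0.746% and 1.15%, and in JHT against WT females 0 and 0, against 0.0926% and 0.161%, with 4 and 2 at an unadjusted p under 0.05. The median changes of the 60 genes lay between -0.11 and 0.08, against -0.02 to 0.01 over all genes.

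Next to Smco3, BC049715, an uncharacterized gene 1 place away, had its highest signals in 3xTgAD mice, where those of Smco3 were lowest. Its hippocampal log2 signal was 7.01 to 7.61 in the 5 3xTgAD mice and 4.57 to 5.39 in the 5 3xTgAD-BKO mice. The difference between 3xTgAD and WT females was 2.85 (standard error 0.32, limma adjusted p = 0.0030) in the hippocampus and at least 7.54-fold in the brain, where no WT array was well above background (limma adjusted p = 0.0013). It was lower in 3xTgAD-BKO than in 3xTgAD mice by 2.58 in females and 2.11 in males in the hippocampus, and at least 7.14-fold in brain males, while brain females did not pass (-1.62, limma adjusted p = 0.098). Wbp11, 2 places away and known as a splicing factor, was also higher in 3xTgAD hippocampi (14.47 to 14.70) than in 3xTgAD-BKO (13.64 to 14.07) and WT (13.64 to 13.75). Pde6h, an inhibitory subunit of the cone phosphodiesterase 5 places away on the other side, had lower values in 3xTgAD (4.44 to 4.80) than in 3xTgAD-BKO hippocampi (5.59 to 6.18). Thus of the 3 called neighbours of Smco3, 2 were higher and 1 lower in 3xTgAD hippocampi, while the other 7 did not pass. Hippocampal Pde6h did not pass in 3xTgAD-BKO against 3xTgAD females. Neither Wbp11 nor Pde6h passed in the brain. There Pde6h overlapped, at 4.57 to 5.31 in 3xTgAD, 5.04 to 5.92 in 3xTgAD-BKO and 4.91 to 5.16 in WT. Brain Wbp11 read 13.73 to 13.93 in 3xTgAD, 13.27 to 13.67 in 3xTgAD-BKO and 13.35 to 13.69 in WT.

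Next to Ppcdc, Rpp25, 2 places away and encoding a subunit of RNase P, fell with Ppcdc in 3xTgAD mice. Its hippocampal signal was 7.66 to 8.39 in 3xTgAD mice, 9.43 to 10.01 in 3xTgAD-BKO, 9.86 to 10.04 in WT, and 9.44 and 9.62 in JHT mice, with no overlap. It passed in all 6 comparisons that involved 3xTgAD mice, with hippocampal 3xTgAD minus WT at -2.25 (standard error 0.13, limma adjusted p = 4.6e-05). The same difference was -1.78 in the brain (standard error 0.19, limma adjusted p = 0.0012). Unlike Ppcdc it was well above background on every array. Scamp5, between both genes, did not pass in any comparison. On the other side of Ppcdc, 1700017B05Rik was 0.63 higher in the brain of 3xTgAD than of WT females (limma adjusted p = 0.048, and over 0.05 in 17 of 28 settings).

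The neighbours of Krt12, D4Ertd617e and Anxa8 gave 1 call each. Krt28, a keratin of the hair root sheath 2 places from Krt12, read 5.25 to 6.16 in 3xTgAD-BKO brains against 7.77 to 8.18 in 3xTgAD, and was lower by 2.04 in females and 2.11 in males (limma adjusted p = 0.0057 and 0.0010). In the hippocampus the same gene overlapped between the genotypes (5.73 to 6.35 and 5.97 to 6.42). Ebna1bp2, a nucleolar factor beside D4Ertd617e, was 0.51 higher in the hippocampus of 3xTgAD-BKO males (limma adjusted p = 0.041), and Shld2, a DNA repair gene 5 places from Anxa8, was 0.70 higher (limma adjusted p = 0.0498). Both were near the threshold and failed it in 19 and 18 of 28 settings.

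**Figure D4:**
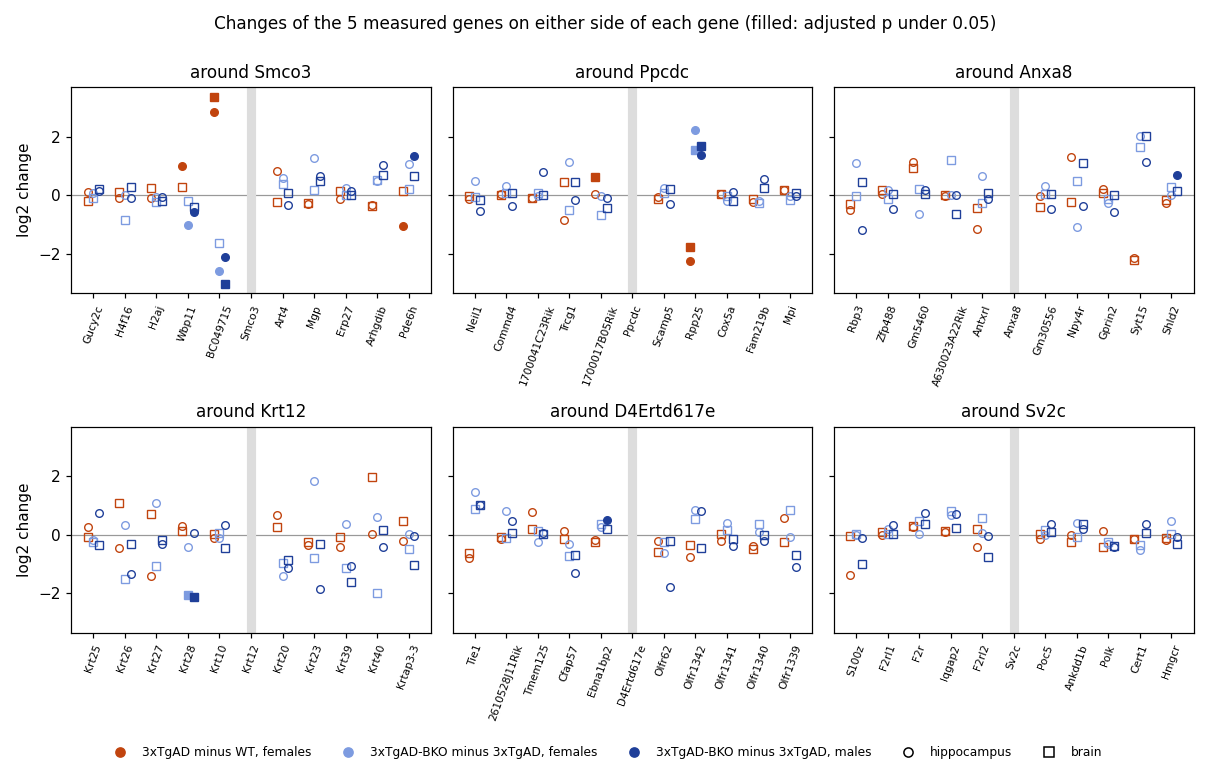
Log2 change (vertical axis) of the 5 measured genes on either side of each of the 6 genes, in gene order (horizontal axis, not to scale), with a grey bar at the gene itself. Circles are hippocampus, squares are brain, colours are comparisons, and filled symbols passed an adjusted p of 0.05. BC049715 lies at 2.85 in hippocampal 3xTgAD minus WT females (its brain point is measured against WT arrays at background), and Rpp25 at -2.25 and -1.78.

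Of 44 related genes of the same families 2 passed in at least 1 of the 8 comparisons, against 3.34% of all genes, which is near that background. The count ranged from 0 to 6 when 1 mouse was left out (0 without mouse 2 or 12, 5 without mouse 0, 6 without mouse 9) and was 9 with the slide as a block, where 21.5% of all genes passed. Among the 6 other enzymes of coenzyme A synthesis only Pank1, the kinase that starts the pathway, passed, and was 0.70 lower in the hippocampus of 3xTgAD than of WT females (limma adjusted p = 0.044, passing in 11 of 26 settings). Among the 20 other keratins listed only Krt6a passed, in brain females, but it was well above background on none of the arrays compared and is given no fold. The list did not hold Krt28, the called neighbour of Krt12, with which 2 keratins passed, while 5 of its keratins (Krt10, Krt20, Krt23, Krt25 and Krt27) were also among the neighbours. None of 11 other annexins, 4 vesicle transporter relatives of Sv2c (Sv2a, Sv2b, Svop and Svopl) and 3 other Smco genes passed (limma), and 7, 3 and 2 of them had an unadjusted p under 0.05, as had 54.2% of all genes in at least 1 comparison. None of these 44 genes was all-or-none by the strict definition above.

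The genes most like each of the 6 were sought among 26684 genes, by Pearson's r over the 30 arrays after subtracting the mean of each tissue. Arrays of one genotype share the line, in pairs the mouse, and in part the slide, so these values describe likeness and carry no test. Smco3 was most like the transcript AK080325 (r = 0.99) and the zinc finger gene Zfp758 (r = 0.98). Hippocampal Zfp758 was 7.48 ± 0.16 (SD, n = 5) in 3xTgAD and 9.50 ± 0.29 (SD, n = 5) in 3xTgAD-BKO mice, and was well above background on every array of both. Ppcdc had a transcribed region on chromosome 17 (r = 0.98), an Ensembl transcript with no symbol here (r = 0.96) and Smco3 (r = 0.95) nearest. Smco3 and Ppcdc also shared Glo1 (chromosome 17), a detoxifying enzyme, as the gene that ran most opposite to them (r = -0.98 for both). Anxa8 was most like the collagen gene Col2a1, the repressor gene Hic1 and Nat8f5 (r = 0.91, 0.91 and 0.90), and Col2a1 was, like Anxa8, well above background on 0 of 5 hippocampal and 5 of 5 brain arrays of 3xTgAD mice.

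Krt12 was most like Stac2 (r = 0.97, also on chromosome 11, followed by AK047660 and Pgm1 at 0.93 and 0.92), which read 10.16 ± 0.21 in 3xTgAD-BKO and 11.92 ± 0.07 in 3xTgAD hippocampi (SD, n = 5 each). The same Stac2 ran most opposite to Sv2c (r = -0.97), whose nearest genes were a transcribed region on chromosome 7 and the transcript AK173092 (r = 0.97 and 0.96), followed by Arsk, an arylsulfatase gene on chromosome 13 like Sv2c (r = 0.96). D4Ertd617e was most like a transcript with no symbol here (r = 0.98), Tmc7 (r = 0.97) and Dctn5 (r = 0.96). In mouse 8 hippocampal Tmc7 was 9.54, between 7.63 to 8.21 in the 4 other 3xTgAD-BKO mice and 10.36 to 10.88 in the other genotypes. These genes were picked by likeness over arrays that include both of mouse 8, so such a departure was part of the choice. Hippocampal Krt12 of mouse 8 (2.14) lay within the range of the other 3xTgAD-BKO mice, and its hippocampal Sv2c (7.57) lay below theirs (8.05 to 8.86).

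Among the 50 named genes most like a gene, 12 were on the same chromosome for Sv2c and 11 for D4Ertd617e, where these chromosomes (13 and 4) held 3.73% and 6.29% of the named genes searched. The counts were 5 for Krt12 (8.06% on chromosome 11), 4 for Ppcdc (5.58% on chromosome 9), and 3 each for Smco3 (5.06% on chromosome 6) and Anxa8 (3.57% on chromosome 14). These are counts of genes picked by likeness and were given no test.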

How the data were processed

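RNA from the hippocampus and the remaining brain of 15 mice was measured on 30 Agilent 1-colour arrays (Cy3). For every spot the authors deposited its processed intensity as the scanner software wrote it (Feature Extraction 12.0.3.1, array annotation mm9, background and trends subtracted, no normalization between arrays) and the median pixel intensity used for an alternative. They also deposited a table of scores, each of which matched the Z score of the log10 processed intensity within its array (lowest correlation 1.00). Groups came from the sample labels.

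Control spots (3671 of 62976) and spots marked as outliers or non-uniform were left out. The deposited processed intensity was converted to log2 and quantile-normalized over the 30 arrays, spots of a probe were averaged, and each gene was represented by its brightest probe on average, after the study's methods. Probes were named through their accessions (28331 of 55681 matched a symbol). No array of the 6 genes was left out or imputed. Tests used limma 3.58.1 (R 4.3.3, statmod 1.5.0, the data.table package at version 1.17.8) with Benjamini-Hochberg adjustment over 36717 genes at 0.05, fitted to the 6 groups of genotype and sex in each tissue, or to all 30 arrays for tissue differences. Figures used Python 3.11.15 and matplotlib 3.10.9. The fit was tested on simulated data. Promoters of 5 of the 6 genes came from RefSeq (GRCm38.p6), which also gave chromosomes and gene order.

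The 6 genes and the lists (neighbours, families, tissue markers) were chosen with earlier results of these data known. Named beyond the 6 genes were the 3 genes most like each, the neighbours and family genes that passed, and the label checks, while Scamp5, Glo1 and the chromosome counts were added after their values were seen. Some items, an allele among them, are not reported here. Nothing in the labels beyond the mouse number says how samples were taken, and an array number pairs the tissues of 1 mouse. Over 23321 genes, deviations from the group means in the hippocampus and brain of the same mouse had a median correlation of 0.081 (range -0.086 to 0.23), and 6 of 15 pairs were over 0.1. The number of arrays limits the precision. Alternatives were 75th percentile scaling, normexp with an offset of 50, the mean of a gene's probes, a filter on dim genes, the deposited scores, normalization within a tissue, a threshold of 0.1, the slide and the mouse as blocks, only the groups compared, the methods' t-test, 10 neighbours on either side, and leaving out each mouse.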

Additional observations from a re-analysis of the deposited data

Results flagged for a closer look

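In groups of 5 mice, 3 of 64 tested groups had 1 mouse far from the others by Dixon's criterion, and chance alone gives about 1 in 20. Hippocampal D4Ertd617e of 3xTgAD-BKO mouse 8 stood apart with a gap of 0.85 of the group's range (7.08 against 2.93 in the nearest mouse). Its brain array was also the highest of the group, at 7.68 against 3.85, but the gap did not reach the limit. Hippocampal Ppcdc of 3xTgAD-BKO mouse 0 stood apart with a gap of 0.87 of the range (3.68 against 5.77). Brain 1700017B05Rik of 3xTgAD mouse 3 stood apart with a gap of 0.74 of the range (8.70 against 8.94). The cause of these gaps was not tested. The difference between the sexes in the change from 3xTgAD to 3xTgAD-BKO did not pass an adjusted p of 0.05 (limma) for any of the 6 genes or the called neighbours and family genes in either tissue, and the smallest value was 0.073, for Rpp25 in the hippocampus.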

How the results depend on the processing

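On the signal scale, without limits, the 12 differences between 3xTgAD-BKO and 3xTgAD means of the 6 genes kept their direction under every scaling, background, probe, score and leave-one-out alternative that was run. The neighbour count of 8 (3.34% of all genes passing) became 5 with the deposited scores (2.23%), 16 at a threshold of 0.1 (7.86%), 20 with the slide as a block (21.5%), 4 with only the groups compared (0.986%), 45 and 0 with the methods' t-test before and after adjustment (57.2% and 0.117%), and 18 of 120 with 10 genes on either side. With all 30 arrays in one fit it was 18 (9.91%) with and 18 (9.94%) without the mouse as a replicate block, the latter added after seeing the data, so the block did not move it. Leaving out each mouse gave 5 to 12 (2.16% to 7.08%), with 5 without mouse 2, 4, 7, 11 or 13. The family count of 2 became 1 with 75th percentile scaling (2.43% of all genes passing), the deposited scores or the dim filter (6.79%), 0 with normexp (3.83%) or only the groups compared, 4 at a threshold of 0.1, 9 with the slide as a block, 6 with all 30 arrays with or without the replicate block, and 0 to 6 when a mouse was left out (0 without mouse 2 or 12, 6 without mouse 9, 5 without mouse 0). The 4 tissue differences were 2 with the mean of a gene's probes, 4 with the mouse as a replicate block and 3 to 5 when a mouse was left out. The sex differences were 0, and 0 to 1 when a mouse was left out. Reversed values were all of results that did not pass: Anxa8 between tissues in JHT was 0.030 with 75th percentile scaling, brain Krt12 between the sexes of 3xTgAD was -0.44 and hippocampal Sv2c of 3xTgAD-BKO -0.17 with the mean of probes, and Sv2c of 3xTgAD-BKO was 0.23 in the brain and -0.076 in the hippocampus with the slide as a block. When a mouse was left out, Anxa8 between tissues ranged from -0.079 to 0.52 in 3xTgAD-BKO and from -0.71 to 0.58 in JHT. Between the sexes, Anxa8 ranged from -0.73 to 0.29 in 3xTgAD-BKO hippocampus and from -0.29 to 0.026 in 3xTgAD brain, D4Ertd617e from -0.064 to 0.30 in hippocampus and from -0.17 to 0.042 in brain, Krt12 of 3xTgAD from -0.25 to 0.10 in hippocampus and from -0.012 to 0.14 in brain, and Sv2c from -0.15 to 0.67 in hippocampus and from -0.96 to 0.45 in brain. The causes were not tested.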
